A study of Mus musculus with 2 samples.

Results

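Striated muscle contracts when calcium binds the troponin complex on the thin filament, and the isoforms of its 3 subunits were compared here between slow and fast muscle fibres of the mouse. The members are the 8 genes Tnnc1, Tnnc2, Tnni1, Tnni2, Tnni3, Tnnt1, Tnnt2 and Tnnt3, chosen by gene name, out of 23458 genes represented on the array. Every array probe annotated to a RefSeq transcript of these genes was taken, which gave 13 probes. The slow group was a single pool of 1659 GFP-positive fibres from soleus muscles. The fast group was a single pool of 4447 GFP-negative fibres from extensor digitorum longus (EDL) muscles. Both pools were drawn from 8 male mice aged 6 to 8 weeks, all heterozygous (G/+) for GFP-Myh7, so that fibres with the slow myosin heavy chain fluoresce and the fast pool carried the allele too. The tissue entry of the slow sample names the EDL, whereas its source entry and the dissection protocol name the soleus. Fibre type and muscle of origin cannot be told apart in this design.

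Troponin C is the calcium sensor of the complex, troponin I holds back the interaction of actin with myosin at rest, and troponin T ties the other subunits to tropomyosin. Adult slow fibres are known for Tnnc1, Tnni1 and Tnnt1, and adult fast fibres for Tnnc2, Tnni2 and Tnnt3. Tnnc1 also serves the heart, where it works with the cardiac subunits encoded by Tnni3 and Tnnt2, and Tnnt2 is also made in embryonic skeletal muscle.

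With 1 array per group there were no replicates, so no test and no p-value could be had for any gene. A 2-fold size rule was used instead, on log2 signals scaled to the 75th percentile of each array, and differences are slow minus fast. The ± beside a difference is 1.96 times the scanner software's own error of the spots. It leaves out variation between animals, dissections and labelling reactions. In pools, fewer fibres of a type and less RNA per fibre cannot be told apart.

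The sort was checked on fibre type markers. Myh7, the slow myosin heavy chain whose tag was used to pick the fibres, had a signal of 316863 in the slow pool against 1094 in the fast pool. Of the fast myosin heavy chains, Myh4 had 57.9 in the slow pool against 160781 in the fast pool, and Myh1 had 725 against 77520. Myh2 was closer between the pools, with 11054 in the slow pool against 36999 in the fast pool. About as many spots stood well above background on both arrays, 50.9% in the slow pool and 52.3% in the fast pool, and no spot was saturated. Markers of other cells also moved with the groups: the summed signal of 10 endothelial genes was 1331 in the slow pool against 4821 in the fast pool, that of 10 fibroblast genes 7634 against 28568, and that of 5 red cell genes with a probe 6801 against 16990. Of these, 8 endothelial, 7 fibroblast and all 5 red cell genes were past 2-fold toward fast fibres, where 14.3% of all genes were. With normexp background correction the counts were 5, 5 and 3, and with spike-in scaling 5, 6 and 2. Over 10 immune genes, of which 5 were measured, the sums were 944 in the slow pool against 3016 in the fast pool. Cd68 alone gave 568 and 2341 of these. The 7 Schwann cell genes summed to 3801 in the slow pool against 1684 in the fast pool, but to 378 against 867 without Pmp22, and 4 of them were past 2-fold toward fast fibres and 2 toward slow, with a median of -1.09. The 9 smooth muscle and pericyte genes summed to 160452 in the slow pool against 156425 in the fast pool, but to 1281 against 2376 without Acta2 and Des, and 3 were past 2-fold toward fast fibres and 1 toward slow, with a median of -0.64. These genes were left out after their values were seen. The part these cells have in the troponin values was not tested.

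All 8 troponin genes were past 2-fold. Tnnc1, Tnni1, Tnnt1, Tnni3 and Tnnt2, thus 5 of 8, were higher in slow fibres, against a background of 10.7% of the 14647 genes detected in either pool. Tnnc2, Tnni2 and Tnnt3, thus 3 of 8, were higher in fast fibres, against a background of 14.3%. All 13 probes were well above background in the slow pool and 11 in the fast pool, the exceptions being both probes of Tnni3.

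**Figure D1:**
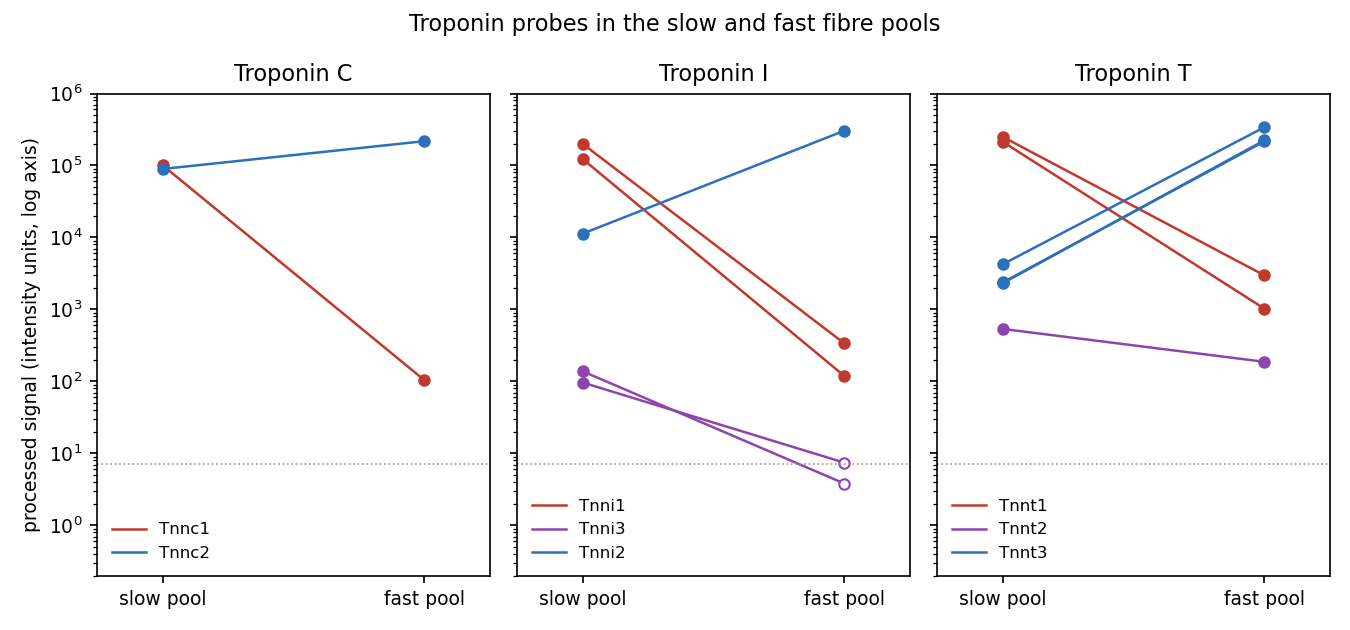
Processed signal of each troponin probe (intensity units, log axis) in the slow pool on the left and the fast pool on the right, 1 line per probe. Red, slow isoforms; purple, cardiac isoforms; blue, fast isoforms. Open points are not well above background, and the dotted line is the lowest signal that was so in the fast pool, 7.21. The red lines run down to the right and the blue lines up, with Tnnc2 the flattest of the blue lines.

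The troponin C genes were the most unequal pair. Tnnc1, the slow and cardiac calcium sensor, had a signal of 100502 in the slow pool against 104 in the fast pool. Its log2 difference of 9.81 ± 0.40 was the largest toward slow fibres among the 12846 genes with a value from both arrays, and the fast pool held 0.111% of the slow level. Tnnc2, the fast calcium sensor, had 89427 in the slow pool against 217476 in the fast pool. This was a log2 difference of -1.38 ± 0.40, so the slow pool still held 38.3% of the fast level. Tnnc2 therefore ranked 1053 from the fast end, and its difference was -0.97 under scaling to the spike-in controls and -0.9986 under quantile normalization, both short of the 2-fold rule. Its error interval also reached inside that rule. With normexp background correction the difference of Tnnc1 was 9.21 or 9.39, depending on the scaling.

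The 250 bases before the start of both troponin C genes are shown because the genes of slow or fast isoforms moved together, and because these are the calcium sensors of the complex. They come from RefSeq (GRCm38.p6), where 6 of the 8 troponin genes matched, and Tnni2 and Tnnt3 did not. The Tnnc1 sequence is chr14:31208062-31208311 on the plus strand, and the Tnnc2 sequence is chr2:164779735-164779984 on the minus strand. Capitals mark every match of 6 short motifs in the window searched.
Tnnc1: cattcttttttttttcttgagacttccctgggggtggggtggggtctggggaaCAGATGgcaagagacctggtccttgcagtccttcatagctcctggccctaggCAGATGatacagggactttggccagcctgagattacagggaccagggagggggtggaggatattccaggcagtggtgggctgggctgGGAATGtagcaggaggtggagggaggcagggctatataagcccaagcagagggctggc
Tnnc2: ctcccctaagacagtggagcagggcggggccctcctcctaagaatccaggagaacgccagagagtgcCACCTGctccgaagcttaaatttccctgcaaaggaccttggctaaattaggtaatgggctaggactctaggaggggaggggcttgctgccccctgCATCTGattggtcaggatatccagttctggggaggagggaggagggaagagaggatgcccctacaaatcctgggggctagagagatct
The motifs were the E-box bound by myogenic factors (CANNTG), the MCAT element bound by TEAD factors (CATTCC), an NFAT core (GGAAAA), MEF2 and CArG elements, each on both strands, and the TATA box (TATAAA) on the forward strand. Among 32851 mouse promoter windows of the same length, 66.2% held an E-box, 12.6% an MCAT element, 20.4% the NFAT core, 2.92% a MEF2 element, 1.47% a CArG element and 7.59% the TATA box. Tnnc1 held 2 E-boxes of the letters CAGATG and an MCAT element on the reverse strand at -58 to -53, counted from the start. Tnnc2 held 2 E-boxes and none of the other motifs. A match is a description of these letters and not evidence of binding.

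The troponin I genes separated further. Tnni1, the slow inhibitory subunit, had a signal of 199757 in the slow pool against 338 in the fast pool by its brightest probe, a log2 difference of 9.11 ± 0.40 that ranked 3 of 12846. A further Tnni1 probe had 122953 in the slow pool against 119 in the fast pool, a difference of 9.91. By these probes the fast pool held 0.181% and 0.104% of the slow level. Both probes placed Tnni1 far above 2-fold, and they differed from each other by 0.80.

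Tnni2, the fast inhibitory subunit, had 11294 in the slow pool against 303991 in the fast pool. Its log2 difference was -4.85 ± 0.40, a 28.9-fold lower signal in slow fibres, and it ranked 35 from the fast end. The slow pool thus held 3.46% of the fast level of Tnni2, a smaller share than the 38.3% for Tnnc2.

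Tnni3, the cardiac inhibitory subunit, was dim. Its brighter probe had a signal of 138 in the slow pool and was not well above background in the fast pool, at 3.81. The other probe had 96.5 in the slow pool and 7.43, again not above background, in the fast pool. Since the fast side gives only a limit, Tnni3 was at least 17.9-fold higher in slow fibres by the first probe and at least 12.1-fold by the other. With normexp correction, run with an offset of 50 added to every spot, the log2 difference was 1.60 or 1.66, still past 2-fold.

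The region before the upstream of the 2 annotated starts of Tnni1, chr1:135799171-135799420 on the plus strand, is shown as that of the slow isoform with the highest-ranked difference among the inhibitory subunits.
Tnni1: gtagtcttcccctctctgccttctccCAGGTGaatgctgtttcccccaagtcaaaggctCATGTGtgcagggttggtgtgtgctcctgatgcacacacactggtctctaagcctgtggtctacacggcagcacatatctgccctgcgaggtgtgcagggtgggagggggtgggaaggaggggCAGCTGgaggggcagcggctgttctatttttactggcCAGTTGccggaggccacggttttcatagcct
It held 4 E-boxes, at -224 to -219, -191 to -186, -68 to -63 and -31 to -26, and none of the other 5 motifs. Tnni3 (sequence not shown) held 1 E-box and 1 NFAT core.

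The troponin T genes also crossed over between the pools. Tnnt1, the slow tropomyosin-binding subunit, had a signal of 250185 in the slow pool against 2977 in the fast pool by its brightest probe. The log2 difference was 6.29 ± 0.40, ranking 12 of 12846, and the fast pool held 1.28% of the slow level. A probe annotated to another Tnnt1 transcript had 213679 in the slow pool against 1025 in the fast pool, a difference of 7.60. The probes disagreed by 1.31, more than the software error, and their median was 6.95. They are annotated to different RefSeq transcripts of Tnnt1, and the part of this in the gap was not tested.

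Tnnt3, the fast tropomyosin-binding subunit, was measured by 3 probes. They had signals of 4237, 2368 and 2315 in the slow pool against 339920, 216119 and 223321 in the fast pool. Their log2 differences of -6.43, -6.61 and -6.69 lay within 0.27 of each other, an 86.1-fold to 103-fold lower signal in slow fibres. The brightest Tnnt3 probe ranked 11 from the fast end and reached 43.7% of the saturation value in the fast pool, so it was not clipped. The slow pool held 0.966% to 1.16% of the fast level.

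Tnnt2, the cardiac and embryonic troponin T, had 536 in the slow pool against 187 in the fast pool, both above background. Its log2 difference was 1.42 ± 0.40, or 2.67-fold, which ranked 693 of 12846.

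The regions before the starts of Tnnt1 (chr7:4515976-4516225, minus strand) and Tnnt2 (chr1:135836084-135836333, plus strand, the upstream of its 2 starts) are shown because they differed in their motifs.
Tnnt1: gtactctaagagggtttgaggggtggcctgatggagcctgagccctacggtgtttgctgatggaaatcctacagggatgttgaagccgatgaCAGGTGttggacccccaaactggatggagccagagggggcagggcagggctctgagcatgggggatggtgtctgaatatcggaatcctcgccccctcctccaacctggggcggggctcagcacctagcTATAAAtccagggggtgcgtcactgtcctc
Tnnt2: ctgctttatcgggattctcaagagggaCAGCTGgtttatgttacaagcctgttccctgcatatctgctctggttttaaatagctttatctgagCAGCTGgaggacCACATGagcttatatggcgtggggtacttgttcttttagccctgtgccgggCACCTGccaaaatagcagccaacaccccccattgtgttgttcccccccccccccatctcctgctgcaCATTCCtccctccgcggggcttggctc
Tnnt1 was the 1 troponin window of those matched that held the exact letters TATAAA, at -30 to -25, beside 1 E-box. The search did not count close variants of these letters, such as TATATAA near the end of the Tnnc1 window. Tnnt2 held 4 E-boxes and an MCAT element at -27 to -22. No MEF2 or CArG match and no overlap between motifs was found in the windows shown.

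**Figure D2:**
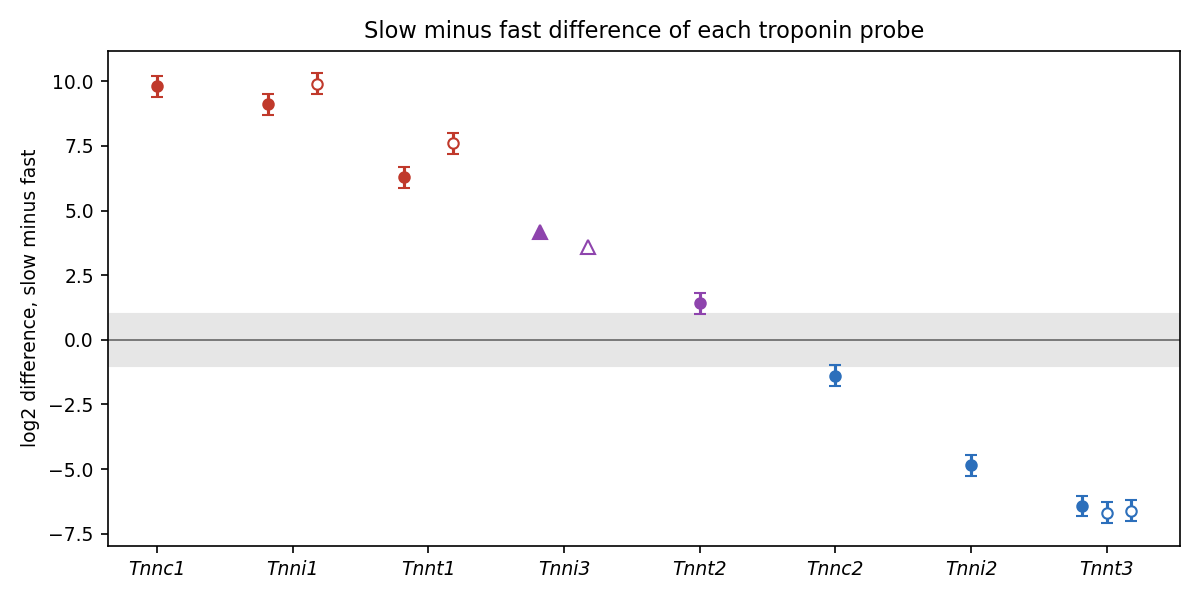
Log2 difference, slow minus fast, of each troponin probe. Filled symbols are the brightest probe of a gene, open symbols the others; error bars are 1.96 times the software error, triangles are lower limits, and the grey band is within 2-fold. Tnnc1 at 9.81 and Tnnt3 at -6.43 mark the ends among the brightest probes, and Tnnt2 and Tnnc2 lie nearest the band.

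**Figure D3:**
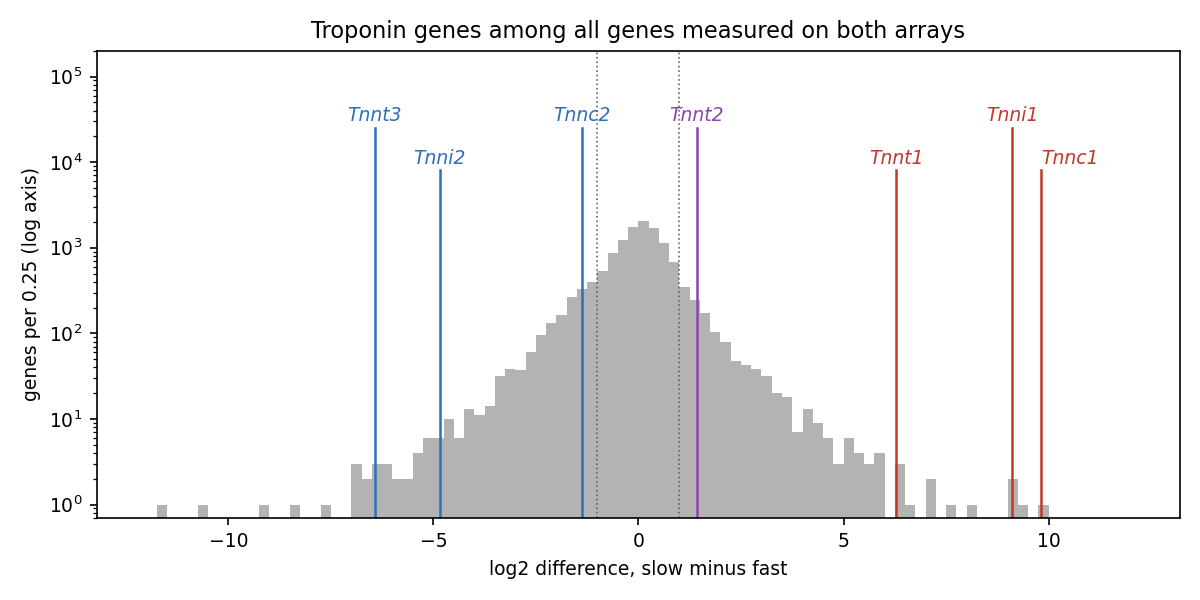
Histogram of the log2 difference, slow minus fast, over the 12846 genes with a value from both arrays (genes per bin, log axis), with the 7 troponin genes measured on both marked and dotted lines at 2-fold. Tnnc1, Tnni1 and Tnnt1 lie in the sparse slow tail and Tnnt3 and Tnni2 in the fast tail, while Tnnc2 and Tnnt2 lie beside many other genes.

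The shift between the isoforms of a subunit was also taken as the difference of the slow isoform minus that of the fast isoform, a value that any scaling of a whole array leaves as it is. It was 13.96 ± 0.57 for troponin I, 12.72 ± 0.57 for troponin T and 11.19 ± 0.57 for troponin C on the log2 scale. Troponin I exceeded troponin T by 1.24 ± 0.80, and troponin C was below troponin T by 1.52 ± 0.80. Over all pairs of probes the shift was 13.96 to 14.76 for troponin I and 12.72 to 14.30 for troponin T, so the order of those subunits depended on the probes. Troponin C, with 1 probe per gene, lay below every pair of the other subunits. With normexp correction the troponin C shift was 10.44 or 10.56, and by medians over probes the troponin T shift was 13.56.

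By the brightest probes, the slow isoform held the larger part of the shift for troponin C (9.81 against -1.38) and troponin I (9.11 against -4.85). The parts were close for troponin T (6.29 against -6.43). Unlike the shift, its parts depend on the scaling. For troponin T they were 6.71 against -6.01 with spike-in scaling, and the other Tnnt1 probe gave 7.60 in the main scaling. Among the slow isoforms, Tnnc1 exceeded Tnni1 by 0.70 ± 0.57 by the brightest probes, but the gap was -0.10 by the other Tnni1 probe. Tnnt1 lay below Tnnc1 by 3.52 and below Tnni1 by 2.82, or by 2.21 and 1.50 at the least over the probes. Among the fast isoforms, Tnnc2 was less shifted than Tnni2 by 3.47 ± 0.57 and less than Tnnt3 by 5.04 ± 0.57. Tnni2 was less shifted than Tnnt3 by 1.58 ± 0.57.

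The level left in the other pool was set beside that of the myosin and Z-line genes. In the fast pool, the slow isoforms Tnnc1, Tnni1 and Tnnt1 were at 0.111%, 0.181% and 1.28% of their slow level. Myh7 was at 0.370%, Myl2, a slow regulatory light chain, at 1.76%, and Myl3, a slow essential light chain, at 41.9%. In the slow pool, Tnnc2 at 38.3% lay near Myl1, a fast essential light chain, at 31.1%, and Myh2 at 27.8% of their fast level, though the 3 probes of Myl1 ran from -3.07 to -0.38 on the log2 scale. Tnni2 at 3.46% lay near Mylpf, the fast regulatory light chain, at 3.89%, and Tnnt3 at 1.16% near Myh1 at 0.872%. Actn3, a fast Z-line actinin, was at 0.467% and Myh4 at 0.0336%. Mybpc2, a fast myosin-binding protein, was not above background in the slow pool and was at least 11769-fold lower there by the rule for dim spots. With normexp correction the log2 difference of Mybpc2 was smaller, at -10.52 or -10.74. No fast troponin reached the low share of Myh4 or Mybpc2.

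**Figure D4:**
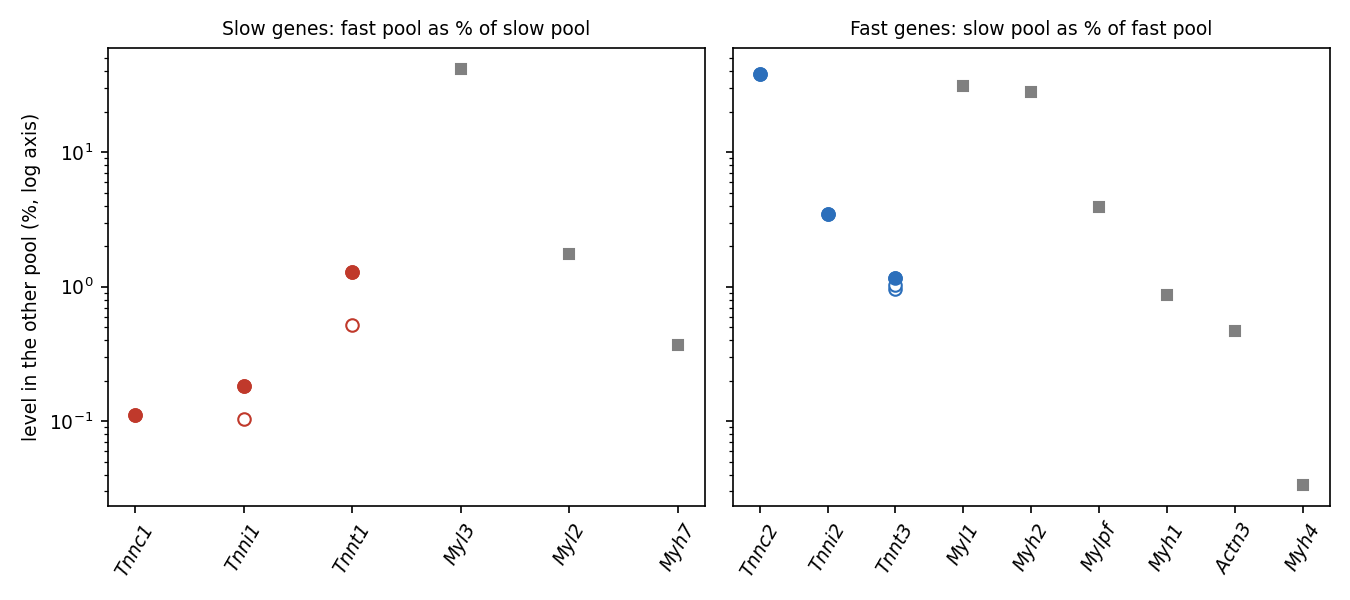
Level in the other pool as a percentage (log axis). Left, slow genes, fast pool as a percentage of the slow pool; right, fast genes, slow pool as a percentage of the fast pool. Circles are troponin probes (filled, the brightest) and squares fibre type markers (Mybpc2, a limit only, is not drawn). Tnnc2 at 38.3% is the highest troponin and Tnni1, by its dimmer probe at 0.104%, the lowest.

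Cardiac markers were examined beside Tnni3 and Tnnt2. Of 17 cardiac genes, 7 were well above background in the slow pool and 8 in the fast pool, and their summed signals were 3681 in the slow pool and 3060 in the fast pool. Most of these sums came from Myh6 and from Myl4, with 2183 in the slow pool against 2505 in the fast pool. Myl4 is also on the list of developing and regenerating muscle markers. The atrial light chain Myl7, the cardiac calcium release channel Ryr2 and the heart transcription factors Tbx5, Tbx20, Nkx2-5, Gata4 and Hand2 were not above background in either pool. Myh6, the cardiac alpha myosin heavy chain, had 1332 in the slow pool against 151 in the fast pool, 8.19-fold higher in slow fibres by the brighter of its probes, and Tnni3k, a cardiac kinase that binds troponin I, was at least 5.25-fold higher, but 0.56 or 0.50 on the log2 scale with normexp correction, short of 2-fold. The gap junction genes Gja1 and Gja5 were past 2-fold toward fast fibres, Gja1 no longer so with normexp correction, at -0.61 or -0.66.

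Markers of developing or regenerating muscle were set beside Tnnt2 too. Of 11 measured, 4 were past 2-fold toward slow fibres, where 10.7% of all genes were, namely the embryonic myosin Myh3 (5509 in the slow pool against 155 in the fast pool, with probes from 0.59 to 5.05), the adhesion molecule Ncam1 (367 against 101) and the acetylcholine receptor subunits Chrng (126 against 48.7) and Chrna1 (5368 against 2493). Myh8, the perinatal myosin, was 5.19-fold lower in slow fibres by 1 of its 2 probes, and the other 6 genes were within 2-fold. The other Myh8 probe was not above background in either pool. With normexp correction Chrng was at 0.78 or 0.74 on the log2 scale, short of 2-fold, and Chrna1, at 1.0051, was past 2-fold in 6 of 9 alternatives. The summed signal of the list was 152474 in the slow pool and 337721 in the fast pool. Most of it came from H19, with 86502 in the slow pool against 82686 in the fast pool, and Myh8, with 51418 against 248735. The part of these markers in the Tnnt2 value was not tested.

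Troponin I and T genes lie in pairs in the genome, and their neighbours were compared by gene order. On chromosome 1, Tnni1 and Tnnt2 flank Lad1, an anchoring filament gene, and all were higher in slow fibres. Lad1 was dim, with 57.3 in the slow pool and 1.86, not above background, in the fast pool, at least 7.40-fold higher, but only 0.81 or 0.87 on the log2 scale with normexp correction. Phlda3, on the other side of Tnni1, was 7.27-fold lower in slow fibres. On chromosome 7, Tnnt1 and Tnni3 are adjacent and both were higher in slow fibres, while Ppp1r12c next to Tnnt1 was within 2-fold, at 0.21.

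Elsewhere on chromosome 7, Tnni2 and Tnnt3 enclose Lsp1 and Prr33, and all of them were lower in slow fibres. Lsp1, a leukocyte actin-binding protein, had 196 in the slow pool against 2037 in the fast pool, with probes from -3.48 to -1.53. Prr33 had 839 in the slow pool against 7912 in the fast pool, and it overlaps Tnnt3 in the annotation. Mrpl23, a mitochondrial ribosomal protein gene on the far side of Tnnt3, differed by -0.26. Around the troponin C genes, Nisch beside Tnnc1 was higher in slow fibres, 3.95-fold by the brightest probe and 0.79 on the log2 scale by the lowest, while both neighbours of Tnnc2, Ube2c and Snx21, were within 2-fold. Of 13 neighbours, 10 were measured, and 2 of them were higher in slow fibres, 3 lower and 5 within 2-fold, where 10.7% and 14.3% of all genes were higher and lower. So few genes do not set the neighbours apart from that background.

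**Figure D5:**
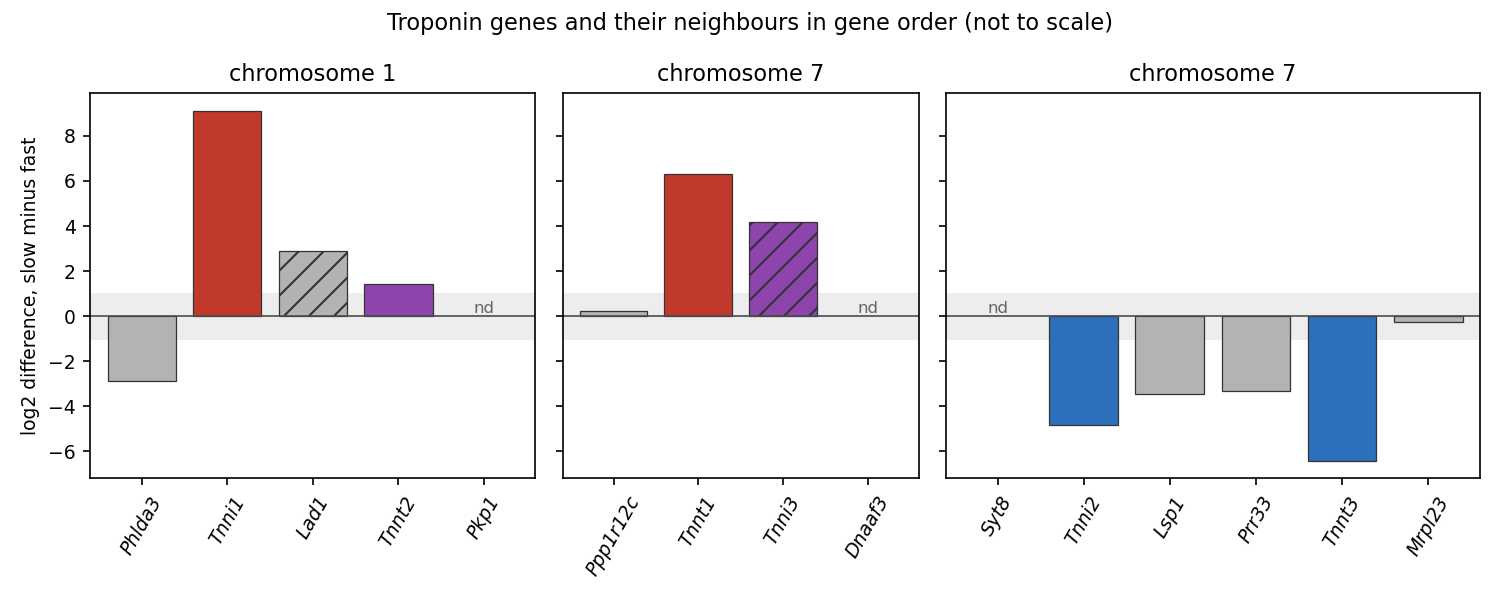
Log2 difference, slow minus fast, of troponin genes and the genes between and beside them, in gene order but not to scale. Red, slow isoforms; purple, cardiac isoforms; blue, fast isoforms; grey, other genes; hatched, lower limit; nd, not above background in either pool; grey band, within 2-fold. Tnni2, Lsp1, Prr33 and Tnnt3 all point down, and Mrpl23 lies within the band.

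The gene with the nearest difference to each adult isoform was looked up over the 2 arrays. It was Myh7b, a slow-type myosin, for Tnnc1 (9.33, a gap of 0.48) and Tpm3, a slow tropomyosin, for Tnni1 (9.07, a gap of 0.04). For Tnnt1 it was Rspo3, a Wnt pathway ligand (6.31, a gap of 0.02). For Tnni2 it was the protease gene Prss23 (-4.82, a gap of 0.03), and for Tnnt3 the calcium-binding protein gene Cib2 (-6.33, a gap of 0.10). Tnnc2, in the crowded part of the distribution, was nearest to Fam20a (-1.38, a gap of 0.0003), which was dim at 14.4 in the slow pool and 35.0 in the fast pool. Some of these values moved with normexp correction, to 8.69 for Myh7b, 4.95 for Rspo3, -3.93 for Prss23 and -0.34 for Fam20a.

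Other genes of the pathway were read against the same shares of all genes, 10.7% higher and 14.3% lower in slow fibres. Of 19 thin filament partners of troponin measured, 4 (21.1%) were higher in slow fibres, 5 (26.3%) lower and 10 within 2-fold, with a median of -0.39 against 0.05 over all genes. By its brightest probe, Tpm3 was higher in slow fibres by 536-fold, though its 6 probes ran from 1.30 to 9.07 with a median of 4.23, and the leiomodin Lmod2, which nucleates actin, was 4.17-fold higher. Actc1, cardiac actin, was 11.8-fold lower in slow fibres and Tpm1, a tropomyosin, 8.01-fold lower by its brightest probe. The 3 probes of Tpm1 ran from -3.34 to -0.47 on the log2 scale, the latter within 2-fold. Acta1, the skeletal actin, chosen here after its value was seen, differed by -0.12.

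Of 21 genes of calcium release and reuptake, which set the calcium that troponin C senses, 3 (14.3%) were higher in slow fibres, 7 (33.3%) lower and 11 within 2-fold, with a median of -0.88. Over all genes the shares were 10.7% and 14.3%, so the higher share was near the background. Atp2a2, the slow calcium pump, was 182-fold higher in slow fibres and Sln, sarcolipin, a pump inhibitor, 33.6-fold. Pvalb, the calcium buffer parvalbumin, had 237 in the slow pool against 335304 in the fast pool, 1515-fold lower, and Atp2a1, the fast calcium pump, was 7.40-fold lower.

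Of 32 transcription regulators of fibre type and troponin genes, 8 (25.0%) were higher in slow fibres, against 10.7% of all genes, 7 (21.9%) lower, against 14.3%, and 17 within 2-fold, with a median of 0.07. Esrrg, an orphan nuclear receptor, was 14.3-fold higher in slow fibres, and Dach2, a transcriptional cofactor, 14.0-fold by the brightest probe but 1.19 on the log2 scale by the median over probes. Maf and Six2 were 24.7-fold and 19.8-fold lower in slow fibres, and Six2 was at -3.02 with normexp correction. Chosen after their values were seen, the MCAT-binding factors Tead1 and Tead4 were 2.10-fold and 2.55-fold higher and their cofactor Vgll2 3.60-fold higher in slow fibres. Tead1 was past 2-fold in 7 of 9 alternatives, with probes from 0.93 to 1.35 on the log2 scale. Sox6, a repressor of slow genes also chosen after its value was seen, was 8.62-fold lower, with probes from -3.24 to -1.73. Nfatc1 and Ppargc1a, chosen in the same way, were within 2-fold, at -0.41 and -0.70.

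Of 16 splicing factors measured, a group that includes regulators of troponin T exons, 1 (6.25%) was higher in slow fibres, 2 (12.5%) lower and 13 within 2-fold, with a median of 0.10, shares near the 10.7% and 14.3% of all genes. Qk was 6.06-fold higher in slow fibres. Rbfox1 was 2.37-fold lower and Mbnl1 was just past 2-fold, at -1.0028 on the log2 scale, but with spike-in scaling these were -0.82 and -0.59, short of 2-fold.

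Of 18 kinases and phosphatases that act on troponin or its neighbours, 3 (16.7%) were higher in slow fibres, against 10.7% of all genes, 4 (22.2%) lower, against 14.3%, and 11 within 2-fold, with a median of 0.36. Prkd1, protein kinase D, was 16.3-fold higher in slow fibres and Tnni3k at least 5.25-fold, and with normexp correction Prkd1 was at 1.75 on the log2 scale, while Tnni3k was short of 2-fold as given above. Pak1 was at least 44.4-fold lower in slow fibres (-2.81 with normexp correction) and Prkca, protein kinase C alpha, 6.64-fold lower.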

How the data were processed

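RNA of 2 fibre pools was labelled with Cy3 from 0.1 µg of total RNA and hybridised to 1-colour Agilent arrays, 1 per group, per the labels' protocols. The deposited spot values are linear intensities, which Agilent Feature Extraction 12.0.3.1 had background-subtracted and detrended, per the file headers, with other columns of 0 or 1 flags and a software error. The authors' deposited value table equals these intensities times 2.45 in the slow and 2.83 in the fast pool (column medians 27.1 and 30.1), with no log or centring, and what the factors scale to is unknown.

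Here, control spots and 159 spots flagged as outliers were dropped, and log2 signals were centred on each array's 75th percentile. Probe accessions were named through RefSeq (GRCm38.p6), and 33763 of 56596 probes (59.7%) matched a gene. A gene takes its brightest probe. A dim side is replaced by the higher of its own signal and the lowest signal above background, 8.81 in the slow pool and 7.21 in the fast pool, and the difference is then written as at least N-fold. In 288 repeated probes the median SD of a difference was 0.05. Processing ran in Python 3.11.15 and R 4.3.3 with limma 3.58.1, and was tested on simulated data.

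The genes named are the troponins, the nearest gene by difference, chromosomal neighbours, up to 4 members of each of 5 functional lists (2 highest and 2 lowest past 2-fold) and the markers. Members and lists were chosen with earlier results of these data known. Some members of the lists are counted but not reported here by name. In all, 11 alternatives were run. The number of arrays limits the precision.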

Additional observations from a re-analysis of the deposited data

How the results depend on the processing

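Across 11 alternatives no troponin difference changed direction, and the troponin calls lost were Tnnc2 under spike-in scaling and quantile normalization (-0.9986) and those under the 3-fold rule. Of the main results, 148 alternative values stayed within the software error or, for counts, near the reported count, and 17 moved. Some of the 148 could not move. The 3-fold rule leaves every difference and subunit shift as it is, and whole-array scaling leaves every subunit shift. Medians over probes leave genes with a single probe, and dropping the dim filter leaves genes above background on both arrays. Spike-in scaling shifted the median of all genes by 0.42 and gave 10.23 for Tnnc1, -0.97 for Tnnc2, 9.52 for Tnni1, -4.43 for Tnni2, 6.71 for Tnnt1, 1.83 for Tnnt2 and -6.01 for Tnnt3. Normexp correction with quantile normalization or the 75th percentile gave 9.39 and 9.21 for Tnnc1, 1.66 and 1.60 for Tnni3, and 10.44 and 10.56 for the troponin C shift. Medians over probes gave 9.51 for Tnni1, 6.95 for Tnnt1 and 13.56 for the troponin T shift. The 3-fold rule left 4 troponins toward slow fibres and 2 toward fast fibres, and 12 members of the other lists, against 19, higher in slow fibres. The cause of the moves was not tested.

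Over all genes, 1570 were past 2-fold toward slow and 2100 toward fast fibres, or 42.8% slow. Spike-in scaling gave 3114 and 1317 (70.3% slow), normexp 771 and 1005 with quantile normalization and 788 and 994 with the 75th percentile, the 3-fold rule 775 and 1070, and no filter on dim probes 2494 and 3104. The authors' table shifted the median by -0.11. No paired analysis was possible because each group had 1 pool. Signal over background limits Tnni3 to a bound.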
